A study of Mus musculus with 42 samples.

Results

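The response of lung to benzo(k)fluoranthene (BkF), a 5-ring polycyclic aromatic hydrocarbon, was compared with the response of liver in the same mice. The comparison used the 23 arrays of the vehicle, medium-dose and high-dose groups of both tissues (12 lung and 11 liver arrays), of 42 arrays in the series. Adult male Muta™Mouse, a transgenic strain kept for mutation assays, were gavaged daily with BkF in olive oil for 28 days from about 11 weeks of age, and tissue was collected 72 h after the final dose. D0 mice had olive oil alone, and the daily amount of BkF per kg of body weight was 50 mg in D2 and 100 mg in D3. Lung was measured in 4 mice per group, and liver in 4, 3 and 4 mice. These arrays came from 12 mice, of which 11 gave both tissues. Only males of 1 strain were used, and RNA was taken from sections of whole tissue, so that fewer cells of a type and less RNA per cell cannot be told apart. The BkF effect in a tissue was the mean of D2 and D3 minus D0, on a log2 scale, and the quantity compared was the lung effect minus the liver effect. A positive difference means that BkF moved the gene further up, or less far down, in lung.

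Hydrocarbons of this class bind the aryl hydrocarbon receptor (AhR), a transcription factor that pairs with ARNT and binds a short DNA element near its target genes. The targets include the cytochrome P450 enzymes of family 1, which oxidise the hydrocarbons, and Ahrr, a repressor that competes with AhR for ARNT and for DNA. Liver carries most of the metabolism of an oral dose, and lung receives what passes on in the blood.

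Marker genes were in accord with both tissue labels. All 9 lung markers with a probe (surfactant and club cell genes among them) were well above background on all 12 lung arrays, against 2 to 6 of them on the liver arrays, and all 10 liver markers were well above background on all 11 liver arrays, against 4 to 7 on the lung arrays. The lung array of mouse 12 (D2) and the liver array of mouse 17 (D3) stood apart by skeletal muscle genes, with a summed marker signal of 18.87 and 15.89 (log2) against at most 10.97 on the other 21 arrays. White fat markers also varied, with a summed signal of 9.40 to 9.49 in vehicle livers, 13.2 and 11.13 in the livers of mice 17 and 20 (D3) and 9.37 to 9.76 in the other 5 exposed livers. In lung they summed to 9.97 to 11.44 in the vehicle mice, to 12.63 to 12.88 in mice 12, 15 and 20 and to 10.60 to 11.34 in the other 5 exposed mice. Without these 5 arrays, a choice made after seeing the sums, 53 probes passed the test given below, with 19 of its 23 calls among them and Car2, Tusc3, Unc13b and Izumo4 lost. Lung and liver were hybridised on separate slides and read with different software versions, and the array's column on the slide followed the dose on all arrays but the D3 liver of mouse 20, so that position and dose can hardly be separated. The 10 E1A spike-in probes are controls for added RNA and not for tissue RNA, and the amount added is not given in the sources used here. They shifted with exposure by 0.11 to 0.22 in lung and by -0.81 to -0.55 in liver, a difference of 0.66 to 0.97. The part of this shift in the results was not tested.

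The tissues differed in their BkF effect at 23 of 24263 tested probes (0.0948%), where a called probe had an adjusted p no higher than 0.05 and differed 1.5-fold or more. The effect was more positive in lung at 8 probes (0.033%) and more negative in lung at 15 (0.0618%). With differences taken within mice 10 probes were called, 7 of them among the 23, and leaving out 1 array gave 6 (without the liver of vehicle mouse 1) to 61 (without the liver of D2 mouse 11). The 23 probes stand for 19 named genes, and 2 probes have no gene name here. Without adjustment, 1997 probes had a p under 0.05, and the median difference over all tested probes was 0.02. Tlr12 and A_55_P2004099 lay just inside the threshold (adjusted p = 0.0463, limma) and Ly6c1, at a difference of -0.99, just outside (0.0523). With median centring in place of loess normalisation, Ahrr and Slc13a2 alone kept their calls, at smaller differences (2.62 and 1.93). Some of the others stayed about as large (Cd36 -2.57, Osbpl3 -1.87 and Igfbp2 1.86 at their main probes). Cyp1b1 fell to 2.67, and Ces1g fell from 1.51 to 0.80. With Agilent's own log ratios 8 of the 23 kept their calls. A tissue was counted as responding at a probe where its effect was at least 1.5-fold with a 95% interval that excluded 0, a rule without adjustment for the number of probes. By it, lung responded upward at 104 probes (0.429%) and downward at 94 (0.387%), and liver upward at 263 (1.08%) and downward at 98 (0.404%). Liver alone responded at 329 probes (1.36%), lung alone at 166 (0.684%), both in the same direction at 27 (0.111%) and both in opposite directions at 5 (0.0206%). Of the 23 probes that differed, 15 were liver responses without a lung response, 3 were responses in both tissues in the same direction, 3 were opposite, 1 was a lung response alone and 1 met the rule in neither tissue. Among those 15, Timp3, Unc13b, Gas6, Izumo4 and the second Osbpl3 probe had a lung interval below 0. Their lung falls missed the rule by size alone.

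**Figure D1:**
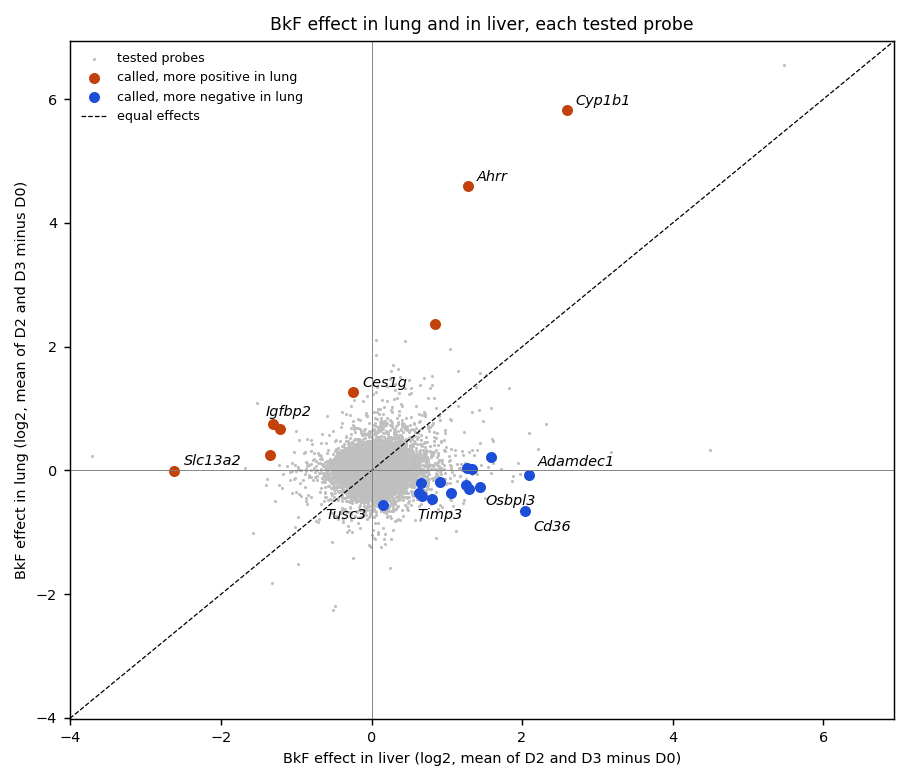
BkF effect in liver (horizontal axis) against lung (vertical axis), both as log2 of the mean of D2 and D3 minus D0, for each of 24263 probes, with the 23 called probes coloured by direction and the dashed line at equal effects. Most called probes lie along the horizontal axis, away from 0 in liver and near 0 in lung, while Cyp1b1 and Ahrr lie high above the line.

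Among the AhR targets, Ahrr and Cyp1b1 rose in both tissues, with a larger fitted effect in lung, and Cyp1a1 responded strongly in both. All 3 were at background in vehicle livers, and Ahrr also in vehicle lungs, so that their fitted liver effects start from background values, the liver rises are known only as the at-least folds given below, and the excess in lung is not a measured difference of effects. Cyp1b1, a P450 that turns hydrocarbons into reactive metabolites, stood at -1.93, -2.64, -2.01 and -1.42 (log2 of sample over reference) in the lungs of the 4 vehicle mice, at 4.18, 3.60, 4.22 and 2.00 at D2 and at 4.37, 4.27, 4.24 and 3.69 at D3. In liver it stood between -2.78 and -2.65 in the vehicle mice, at -0.86, 2.27 and -0.21 at D2 and at -1.11, 0.33, -1.35 and -0.46 at D3. Every exposed array lay above every vehicle array in both tissues, and the exposed lungs (lowest 2.00, median 4.20, highest 4.37) lay above the exposed livers (-1.35, -0.46 and 2.27) except where the lung of mouse 15 fell below the liver of mouse 12. The effect was 5.82 ± 0.36 (SE) in lung and 2.59 ± 0.49 in liver, and the difference was 3.23 (95% interval 1.96 to 4.50, limma, adjusted p = 0.037). None of the vehicle livers gave a signal well above background for this probe, so the liver rise is a bound of at least 5.67-fold and the difference carries the limit of that bound. With Agilent's own log ratios the difference was 0.39 (limma, adjusted p = 0.91). The call was lost with differences taken within mice as the block (3.48, adjusted p = 0.090) and in 13 of the 23 fits that left out 1 array (adjusted p from 4.9e-04 to 0.12 over all 23).

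Ahrr passed the filter on dim probes through its exposed arrays alone in both tissues, as Cyp1b1 and Cyp1a1 did in liver. Its level was -0.65, -0.74, -0.93 and -0.25 in vehicle lungs, 4.02, 3.42, 3.97 and 2.64 at D2 and 4.63, 4.55, 4.38 and 4.03 at D3. In liver it was -0.69, -0.41, -0.35 and -0.35 in the vehicle mice, 0.42, 2.11 and 0.50 at D2 and 0.45, 0.93, 0.32 and 0.88 at D3. Exposed and vehicle arrays did not overlap in either tissue, and all 8 exposed lungs were above all 7 exposed livers. The effect was 4.60 ± 0.23 (SE) in lung and 1.28 ± 0.28 in liver, a difference of 3.32 as fitted (95% interval 2.57 to 4.07, limma, adjusted p = 7.6e-05). No vehicle array of either tissue was well above background, so the rise is known only as at least 19.9-fold in lung and at least 2.29-fold in liver, and the fitted difference, its interval and its p rest on vehicle values at background and do not show by themselves that the tissues differ. With the D3 mice alone the difference was 3.95, and with the D2 mice alone 2.69. With Agilent's own log ratios it was 2.81 (limma, adjusted p = 0.057), short of a call, and a second, dimmer Ahrr probe was not tested.

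Cyp1a1, the best known AhR target and the main enzyme of hydrocarbon oxidation outside the liver, did not differ by the test. In lung it was 3.29, 2.35, 2.09 and 2.96 in the vehicle mice, between 8.46 and 9.57 at D2 and between 9.29 and 9.73 at D3. In liver it was between -0.09 and 0.23 in the vehicle mice, then 3.73, 7.15 and 6.26 at D2 and 5.90, 7.05, 2.62 and 5.55 at D3. The exposed lungs lay close together, and the exposed livers were spread widely, from 2.62 in mouse 19 to 7.15 in mouse 12. The lung effect was 6.55 ± 0.24 (SE) and the liver effect 5.48 ± 0.75, and the fitted difference was 1.07 (95% interval -0.62 to 2.76, limma, adjusted p = 0.78). With Agilent's own log ratios, which are at 0 in all vehicle livers, the direction turned (-5.00, adjusted p = 0.13). Vehicle livers were not well above background for this probe, which makes the liver rise at least 36.4-fold and leaves an excess in liver without an upper limit.

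Tiparp, an ADP-ribosyltransferase that limits AhR signalling, and Nqo1, a quinone reductase, responded upward in both tissues, and neither passed the test of the difference. The Tiparp effect was 1.34 ± 0.19 (SE) in lung and 0.78 ± 0.21 in liver, and the interval of the difference was -0.02 to 1.14. The second Tiparp probe gave a difference of 0.81 with an interval of 0.23 to 1.39, which also missed the threshold (limma, adjusted p = 0.39). The Nqo1 effect was 1.53 ± 0.27 in lung and 0.81 ± 0.27 in liver, with an interval of the difference of -0.07 to 1.51. In liver the highest exposed value of Nqo1, Tiparp, Ahrr, Cyp1b1 and Cyp1a1 was in each case that of mouse 12. The lung of mouse 12, the one with muscle RNA, was the lowest or the second lowest of the exposed lungs for Ahrr, Cyp1b1 and Cyp1a1, the third lowest for Tiparp and the highest for Nqo1.

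Cyp1a2, the family member that liver makes in quantity, was left out of the test because it was well above background on only 2 of the 12 lung arrays. Its level in liver was 6.28 ± 0.13 (SD, n = 4) at D0, 6.43 ± 0.23 (n = 3) at D2 and 6.24 ± 0.29 (n = 4) at D3. Moxd1, a monooxygenase-like gene named here after its value was seen, had a liver effect of -3.71 ± 0.70 (SE) and a lung effect of 0.23 ± 0.36, the most positive difference of all genes at 3.94 (limma, adjusted p = 0.076).

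The DNA before the start sites of these targets is shown because the AhR complex binds the core GCGTG. The 250 bases before the start were taken from RefSeq (GRCm38.p6) and searched for GCGTG on either strand (CACGC on the strand shown), with matches in capitals. The windows are chr13:74292332-74292581, minus strand for Ahrr, chr17:79715062-79715311, minus strand for Cyp1b1 and chr9:57697363-57697612, plus strand for Cyp1a1. Cd36, described below, is set beside them as a gene with no match (chr5:17835897-17836146, minus strand).
Ahrr: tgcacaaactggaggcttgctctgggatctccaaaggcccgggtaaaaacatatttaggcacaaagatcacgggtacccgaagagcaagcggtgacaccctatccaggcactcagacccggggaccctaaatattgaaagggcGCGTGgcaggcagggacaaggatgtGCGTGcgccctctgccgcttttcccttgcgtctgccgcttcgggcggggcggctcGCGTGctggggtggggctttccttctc
Cyp1b1: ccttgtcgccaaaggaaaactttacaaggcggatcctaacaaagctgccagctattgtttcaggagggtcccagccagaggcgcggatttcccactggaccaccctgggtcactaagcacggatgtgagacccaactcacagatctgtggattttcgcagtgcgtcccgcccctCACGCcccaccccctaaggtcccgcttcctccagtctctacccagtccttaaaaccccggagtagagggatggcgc
Cyp1a1: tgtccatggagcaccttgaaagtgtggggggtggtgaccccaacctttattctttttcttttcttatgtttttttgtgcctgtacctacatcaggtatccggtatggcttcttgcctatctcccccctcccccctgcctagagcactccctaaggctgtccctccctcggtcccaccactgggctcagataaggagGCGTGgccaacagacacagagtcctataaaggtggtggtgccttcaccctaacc
Cd36: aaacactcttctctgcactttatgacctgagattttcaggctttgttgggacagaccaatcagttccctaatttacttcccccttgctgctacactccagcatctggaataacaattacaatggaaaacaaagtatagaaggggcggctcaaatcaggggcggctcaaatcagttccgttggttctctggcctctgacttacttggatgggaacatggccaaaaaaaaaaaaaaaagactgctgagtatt
Ahrr has 3 matches, 107, 82 and 27 bases before the start, Cyp1b1 has 1 at 76 bases, and Cyp1a1 has 1 at 54 bases. Of the 19 named genes that differed, 14 have such a window in the RefSeq table and 6 of these hold a match, whereas 30.9% of all 27025 genes with a window do. The other genes with a match are Igfbp2, Osbpl3, Timp3 and Unc13b. A match is a description of the letters in the window.

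**Figure D2:**
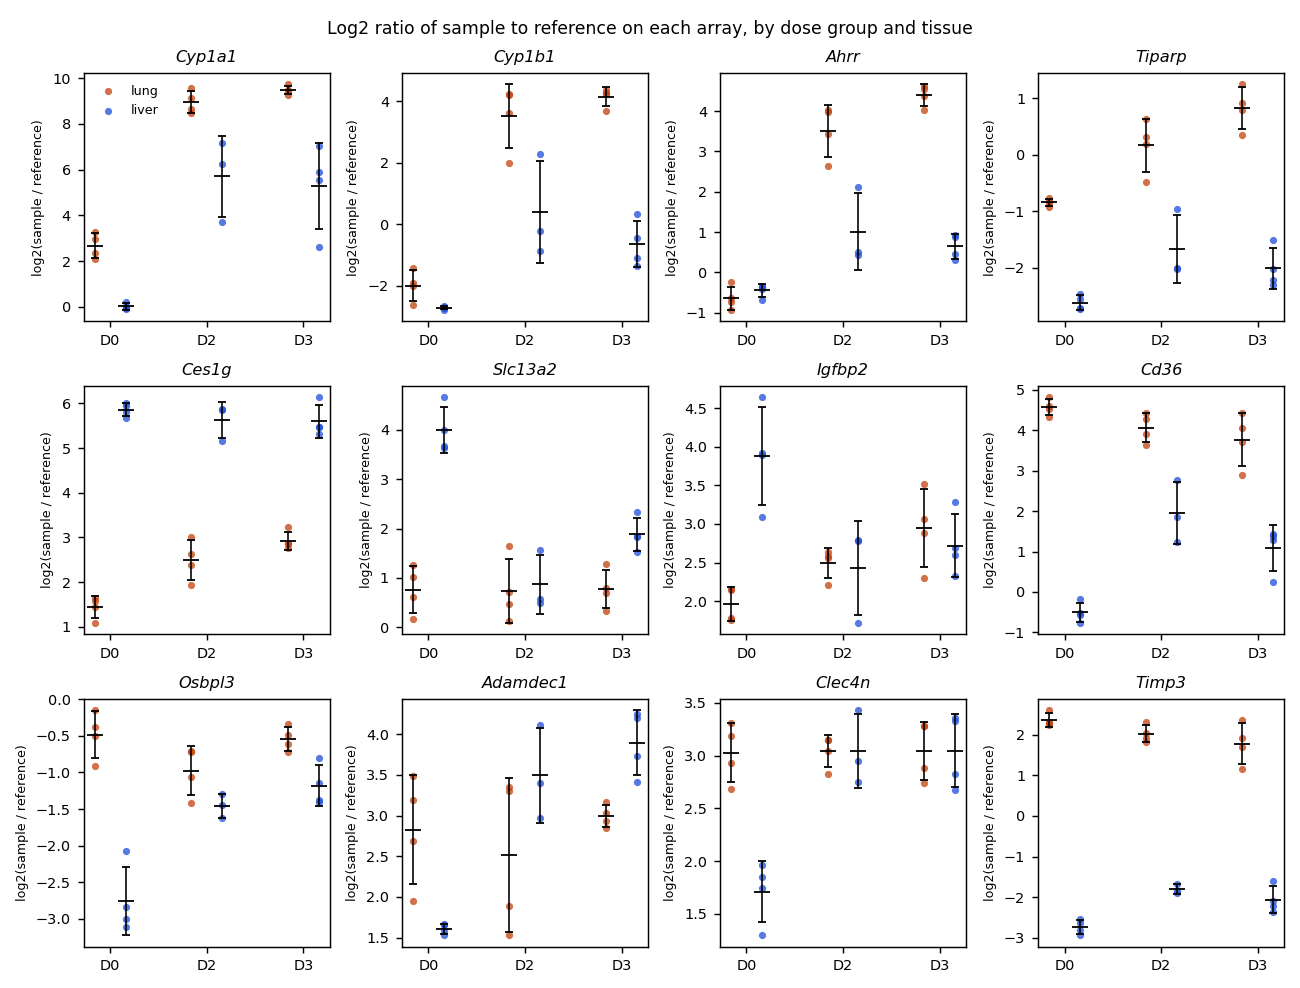
Log2 ratio of sample to reference (vertical axes, each with its own range) on each array of D0, D2 and D3 for 12 genes, lung in orange and liver in blue, with black bars for the group mean and SD. In the Cd36 panel the exposed lungs lie at or below the vehicle lungs while every exposed liver lies above the vehicle livers. In the Igfbp2 panel the 8 exposed lungs lie above the vehicle lungs and 6 of 7 exposed livers below the vehicle livers.

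By the response rule, Cd36 and Igfbp2 moved in opposite directions in the tissues. Cd36, a membrane receptor that takes up fatty acids and oxidised lipoproteins, was 4.33, 4.61, 4.82 and 4.53 in vehicle lungs, 3.64, 3.90, 4.29 and 4.43 at D2 and 3.70, 4.05, 4.42 and 2.90 at D3. In liver it was -0.57, -0.53, -0.17 and -0.76 in the vehicle mice, 1.25, 2.78 and 1.85 at D2 and 0.25, 1.45, 1.29 and 1.39 at D3. All 7 exposed livers were above all vehicle livers, and 6 of 8 exposed lungs were below all vehicle lungs. The lung effect was -0.65 ± 0.24 (SE) and the liver effect 2.03 ± 0.29, and the difference was -2.69 (95% interval -3.46 to -1.92, limma, adjusted p = 0.0016). The call held with differences within mice (-2.75), in all 23 fits without 1 array and without the 5 arrays of raised fat markers (-2.43). These settings bear on the difference and not on the lung fall alone. The lung effect, with a 95% interval of -1.17 to -0.13, passed the 1.5-fold rule (0.585 in log2) narrowly. Its lowest value, 2.90, was that of mouse 20, a lung with raised fat markers. Whether lung meets the rule without that array was not tested. Within single mice, lung exceeded liver by 4.90 to 5.29 in the 4 vehicle mice and by 1.12 to 3.46 in the 7 exposed mice with both tissues.

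Igfbp2 encodes a secreted protein that binds insulin-like growth factors. Its main probe was 1.76, 2.15, 2.15 and 1.79 in vehicle lungs, 2.64, 2.22, 2.56 and 2.58 at D2 and 3.07, 2.88, 3.52 and 2.30 at D3. In vehicle livers it was 4.64, 3.92, 3.09 and 3.89, at D2 2.77, 1.72 and 2.79, and at D3 2.60, 2.32, 3.28 and 2.69. All 8 exposed lungs were above the vehicle lungs, and 6 of 7 exposed livers were below the vehicle livers. The lung effect was 0.76 ± 0.19 (SE), the liver effect -1.31 ± 0.29 and the difference 2.07 (95% interval 1.35 to 2.79, limma, adjusted p = 0.018). The second probe gave 0.67 and -1.22, a difference of 1.89 (limma, adjusted p = 0.018). With differences within mice the main probe missed the threshold (adjusted p = 0.055) and the second passed it (0.019). Without the liver of vehicle mouse 1, 2 or 4 both probes missed it, with adjusted p from 0.068 to 0.089.

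Gstp2, a glutathione transferase, had the same opposite pattern by the response rule and did not pass the test of the difference. Its effect was 0.64 ± 0.12 (SE) in lung, where all 8 exposed arrays were above the vehicle arrays, and -1.01 ± 0.34 in liver, where all 7 were below, a difference of 1.65 (95% interval 0.88 to 2.42, limma, adjusted p = 0.13). The liver of mouse 12 was the lowest at 2.32 while the other exposed livers reached up to 4.48, and without it the difference was 1.35 and passed (limma, adjusted p = 0.040). The second Gstp2 probe was at 0.51 in lung, short of the response rule, and -0.86 in liver, a difference of 1.37 (limma, adjusted p = 0.18). The paralog Gstp1 gave 1.29, and the probes of these near-identical genes may read both. The last opposite probe, A_51_P267933, has no gene name here, with effects of -0.98 and 1.12 and an adjusted p of 0.13 (limma).

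Slc13a2, a sodium-coupled transporter of citrate and other dicarboxylates, fell in liver, with a lung effect near 0 from a dim signal. Vehicle livers were at 4.00, 3.68, 4.66 and 3.64, D2 livers at 1.56, 0.49 and 0.57 and D3 livers at 1.52, 1.84, 1.83 and 2.34. Lung values were between 0.16 and 1.26 in the vehicle mice and between 0.13 and 1.64 in the exposed mice. All 7 exposed livers were below all vehicle livers, and the lung groups overlapped. The lung signal was well above background on 3, 2 and 3 of the 4 arrays at D0, D2 and D3, so a fall of the size seen in liver could not have been read there. The liver effect was -2.62 ± 0.25 (SE), the lung effect -0.01 ± 0.28 and the difference 2.61 (95% interval 1.85 to 3.38, limma, adjusted p = 0.0016), with the call kept within mice and in all 23 fits without 1 array. It was lost with Agilent's own log ratios (3.46, adjusted p = 0.18) and with D3 alone (2.12, adjusted p = 0.058). Unnamed probe A_55_P1977776 had a similar pattern, with a liver effect of -1.35 ± 0.23, a lung effect of 0.26 ± 0.19 and a difference of 1.61 (limma, adjusted p = 0.028, and 0.10 within mice). Its call was lost in 6 of the 23 fits without 1 array.

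Ces1g, a carboxylesterase that hydrolyses esters of drugs and lipids, was the single called gene with a lung response alone. It was between 1.096 and 1.64 in vehicle lungs, 3.00, 1.94, 2.39 and 2.63 at D2 and 3.23, 2.84, 2.77 and 2.88 at D3. In liver it was between 5.67 and 6.01 in the vehicle mice and between 5.16 and 6.13 in the exposed mice. All exposed lungs were above the vehicle lungs, and all lung values remained below all liver values. The lung effect was 1.27 ± 0.18 (SE), the liver effect -0.25 ± 0.18 and the difference 1.51 (95% interval 1.00 to 2.02, limma, adjusted p = 0.010). It missed the threshold with differences within mice (1.49, adjusted p = 0.094) and with Agilent's own log ratios (1.38, 0.097) and passed in all 23 fits without 1 array. With median centring the difference shrank to 0.80 and was not called. Near-identical members of the Ces1 cluster may share signal. Unnamed probe A_55_P2004099 rose by 2.37 ± 0.21 in lung and by 0.84 ± 0.23 in liver, a difference of 1.53 (limma, adjusted p = 0.046, and 0.10 within mice) that passed in 7 of the 23 fits without 1 array.

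At 14 of the 15 probes with a more negative effect in lung, liver responded upward, the exception being Tusc3. Osbpl3, an oxysterol-binding protein of lipid transport at membrane contacts, was called at both of its probes. Its main probe was between -3.11 and -2.08 in vehicle livers, -1.62, -1.29 and -1.45 at D2 and -1.38, -1.14, -1.41 and -0.80 at D3. In lung it was between -0.91 and -0.15 in the vehicle mice and between -1.42 and -0.33 in the exposed mice. Every exposed liver was above the vehicle livers, and the lung groups overlapped. The liver effect was 1.44 ± 0.19 (SE), the lung effect -0.27 ± 0.16 and the difference -1.72 (95% interval -2.23 to -1.20, limma, adjusted p = 0.0019). The second probe gave -1.59 (limma, adjusted p = 0.0016), and both calls held within mice and in all 23 fits without 1 array.

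Adamdec1, a metalloprotease of macrophages and dendritic cells, was between 1.53 and 1.66 in vehicle livers, 3.40, 2.97 and 4.12 at D2 and 3.73, 4.25, 3.41 and 4.20 at D3. In lung it was 3.49, 2.69, 3.19 and 1.95 in the vehicle mice and between 1.52 and 3.36 in the exposed mice. All 7 exposed livers were above the vehicle livers, and 4 of them were above every lung. The liver effect was 2.09 ± 0.21 (SE), the lung effect -0.07 ± 0.36 and the difference -2.16 (95% interval -3.02 to -1.30, limma, adjusted p = 0.046). The call was lost within mice (-2.30, adjusted p = 0.080) and passed in 8 of the 23 fits without 1 array, and the second, dimmer probe gave -0.43 (limma, adjusted p = 0.50).

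Clec4n, the lectin receptor Dectin-2 of macrophages, was 1.29, 1.85, 1.74 and 1.96 in vehicle livers and between 2.68 and 3.43 in the exposed livers, while all lungs lay between 2.69 and 3.31. Its difference was -1.31 (95% interval -1.79 to -0.84, limma, adjusted p = 0.018, and 0.22 within mice), and 5 of 23 fits without 1 array lost it. Tlr12, a Toll-like receptor for profilin, rose in liver from between 0.36 and 0.72 to between 1.85 and 2.61, with a difference of -1.36 (limma, adjusted p = 0.046). It passed within mice (-1.50, adjusted p = 0.033) and in only 4 of the 23 fits without 1 array. Gas6, a ligand of the TAM receptors that macrophages use to clear dead cells, rose in liver by 1.05 ± 0.21 (SE) and had a lung effect of -0.36 ± 0.16, a difference of -1.42 (limma, adjusted p = 0.028, and 0.22 within mice). It passed in 15 of the 23 fits without 1 array. Adgrg3, an adhesion receptor of granulocytes, had a liver effect of 0.91 ± 0.13, a lung effect of -0.18 ± 0.14 and a difference of -1.09 (limma, adjusted p = 0.018, and 0.15 within mice), with 20 of 23 fits passing.

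Macrophage markers gave values beside these genes. In liver their summed signal, over 11 markers with a probe, ranged from 13.97 to 14.42 (log2) in the vehicle mice, from 13.91 to 15.22 at D2 and from 14.28 to 14.91 at D3, and 8 or 9 of the markers were well above background at D0 against 10 in the exposed livers. In lung the sum was 14.52 to 14.82 at D0 and 13.50 to 14.81 in the exposed mice other than mouse 12, whose lung stood at 17.28. Of the 9 macrophage markers tested, Cx3cr1 and Marco met the liver response rule and 0 passed the test of the difference. Vsig4, a marker of liver macrophages, had a liver effect of -0.44. The part of these markers in the genes above was not tested.

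Cd74 and Cx3cr1 had large differences that missed the threshold. Cd74, the invariant chain of MHC class II, was between -0.94 and -0.58 in vehicle livers and between 0.19 and 1.98 in exposed livers, without overlap, and stood at 3.62 ± 0.33 (SD, n = 4) in vehicle lungs, 3.76 ± 0.92 (n = 4) at D2 and 3.36 ± 0.45 (n = 4) at D3. Its difference was -2.03 (95% interval -2.92 to -1.14, limma, adjusted p = 0.071), and it passed with differences within mice (-2.06, adjusted p = 0.024) and without the lung of mouse 12 and the liver of mouse 17 (-1.76, adjusted p = 0.043). Cx3cr1, the fractalkine receptor of monocytes, had a liver effect of 1.51 ± 0.22 (SE) and a lung effect of -0.44 ± 0.34, a difference of -1.95 (95% interval -2.78 to -1.12, limma, adjusted p = 0.071). The dimmer Cx3cr1 probe gave -0.53 (limma, adjusted p = 0.68).

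Timp3, an inhibitor of matrix metalloproteases, fell in 6 of 8 exposed lungs below the vehicle range and rose in all 7 exposed livers above it, with effects of -0.46 ± 0.18 (SE) and 0.80 ± 0.14 and a difference of -1.26 (limma, adjusted p = 0.024, and 0.083 within mice). Car2, a carbonic anhydrase, had effects of -0.24 and 1.25 and a difference of -1.49 (limma, adjusted p = 0.046, and 0.28 within mice). Leaving out the lung of mouse 12 and the liver of mouse 17 ended the Car2 call (-1.35, adjusted p = 0.052) and no other. Ttc39a, a gene of tetratricopeptide repeats, had effects of 0.04 and 1.27 and a difference of -1.22 (limma, adjusted p = 0.018, and 0.094 within mice), and its dimmer probe gave -0.75 (limma, adjusted p = 0.23). Unc13b, which primes vesicles for release, had effects of -0.42 and 0.67 and a difference of -1.09 (limma, adjusted p = 0.037, and 0.15 within mice). Tusc3, a subunit of the oligosaccharyltransferase, fell below the vehicle range in all 8 exposed lungs, with effects of -0.56 ± 0.10 and 0.16 ± 0.10 and a difference of -0.71 (limma, adjusted p = 0.037, and 0.14 within mice). Izumo4 and 2200002D01Rik rose above the vehicle range in all 7 exposed livers, with differences of -0.996 (limma, adjusted p = 0.046) and -0.86 (0.024) that were lost within mice (0.22 and 0.11). Of the 23 fits without 1 array, 20 kept the call of Ttc39a, 17 that of 2200002D01Rik, 16 that of Timp3, 12 that of Unc13b, 9 that of Tusc3, 7 that of Izumo4 and 5 that of Car2.

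**Figure D3:**
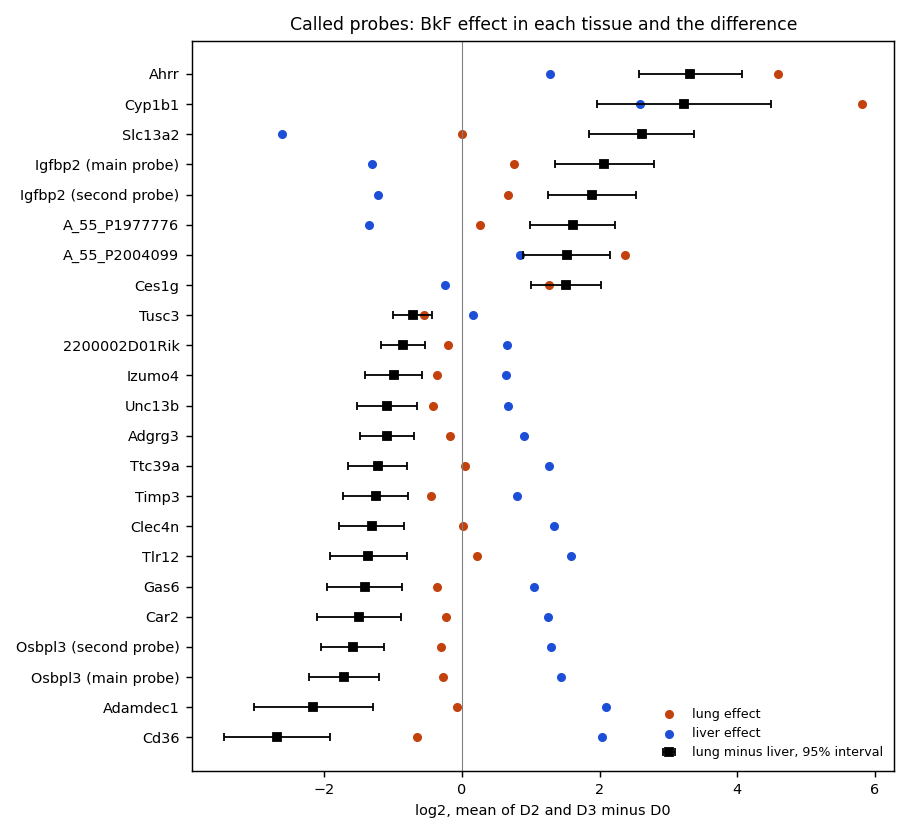
The 23 called probes, with the lung effect (orange), the liver effect (blue) and their difference with its 95% interval (black), all in log2 units on the horizontal axis. The intervals run from -3.46 at the low end of Cd36 to 4.50 at the high end of Cyp1b1, and in the lower block the liver effects lie to the right of 0 with the lung effects near it or to its left.

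The called differences were also described in arrays and pairings that show their spread. Within mice with both tissues, the lung minus liver values of the 7 exposed mice did not overlap those of the 4 vehicle mice at 22 of the 23 probes, the exception being Izumo4, against 1.62% of all tested probes. These are the arrays that gave the calls, so the count is a description. Computed within slides, the 4 lung and 2 liver effects did not overlap at 23 of the 23 probes, against 21.9% of all tested probes. The slide effects come from those same arrays, so this count is a description too. By dose, 5 of the 23 passed with D2 alone and 9 with D3 alone.

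The low-dose mice (25 mg, 3 lungs and 2 livers) lay outside the comparison and were set against its vehicle arrays. For Cd36 the low-dose difference was -1.75, for Osbpl3 -1.48, for Slc13a2 1.26 and for Ces1g 0.32. Low-dose lungs varied widely at the AhR targets, with Cyp1b1 at -0.26, 4.04 and 0.94 and Cyp1a1 at 3.96, 9.28 and 7.10.

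Gene lists were described by counts and medians, beside those of all 12446 genes tested, where the median difference was -0.01, 48.1% of differences were above 0, 0.627% of genes responded upward and 0.562% downward in lung, and 1.78% upward and 0.426% downward in liver. Over all 12446 genes, 1138 had an unadjusted p under 0.05 (limma), and 5 were called more positive and 14 more negative in lung. Members named as examples beyond each list's extremes were picked after their values were seen. Of 19 AhR battery genes tested, 6 responded in lung (31.6%) and 9 in liver (47.4%), all upward, 2 passed the test of the difference (Ahrr and Cyp1b1) and the median difference was 0.28. Both calls rest on vehicle livers at background and carry the limits given above. The receptor and its partners gave 0 responses among 8 genes, with Ahr itself at -0.39 ± 0.28 (SE) in lung and 0.37 ± 0.16 in liver. MHC class II genes had the lowest median difference of the 17 pathway lists, -0.89, and 7 of 10 responded upward in liver and 0 in lung. By limma, 0 of these 10 passed the test of the difference and 5 had an unadjusted p under 0.05, with Cd74 lowest at -2.03, H2-Aa at -1.97 and the regulator Ciita highest at 0.47. Cholesterol synthesis genes had a median of -0.34, with 20 of 24 differences at or below 0 and 4 upward liver responses. By limma, 0 were called and 5 had an unadjusted p under 0.05.

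Lipid uptake and PPAR target genes split, with a median of 0.04 over 26 genes and 1 call, Cd36. Lpl, the lipase that frees fatty acids from blood lipids, had a liver effect of 1.33 and a lung effect of 0.33, and the part of the fat signal in it was not tested. Angptl4, an inhibitor of Lpl, was at -1.01 in liver and -0.91 in lung, and Slc27a2, a fatty acid transporter, had the highest difference at 0.73. Of 8 carboxylesterases tested, 6 had a difference above 0 (median 0.44), and Ces2b went the other way at -1.08. Of 17 Nrf2 and glutathione genes, 13 had a difference above 0 (median 0.16), 0 responded upward in either tissue, and by limma 0 were called and 2 had an unadjusted p under 0.05. Over all 12446 genes, 1138 had such a p. Retinoid genes had a median of 0.18 over 18 genes, with Retsat, a retinol saturase, at -0.44 ± 0.20 (SE) in lung and -0.87 ± 0.11 in liver. Acute phase genes had a median of 0.12 over 14, with Lcn2, an iron-binding protein of neutrophils and liver, lowest at -2.04 (limma, adjusted p = 0.18).

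The other lists had medians between -0.12 and 0.29 and 0 calls by limma, with 0 to 3 genes of each at an unadjusted p under 0.05 (1138 of all 12446 genes). These lists were glucose production (median 0.29, 10 genes), linker histones (0.18, 5 genes), bile acid synthesis and transport (0.10, 7 genes), the circadian clock (0.09, 17 genes), lipogenesis (0.01, 15 genes), interferon-stimulated genes (-0.04, 18 genes), cell proliferation (-0.08, 17 genes) and p53 targets (-0.12, 22 genes). Plk2, a stress-induced kinase, was the highest p53 target, with 0.69 ± 0.15 (SE) in lung, -0.21 ± 0.13 in liver and a difference of 0.91 (limma, adjusted p = 0.085). Cdkn1a, the p53 target that halts the cell cycle, had a lung effect of 0.07 ± 0.22 and a liver effect of 0.51 ± 0.33. H1f2, a linker histone, was 0.57 ± 0.09 in lung and 0.39 ± 0.14 in liver, with the interval of the difference from -0.16 to 0.53.

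**Figure D4:**
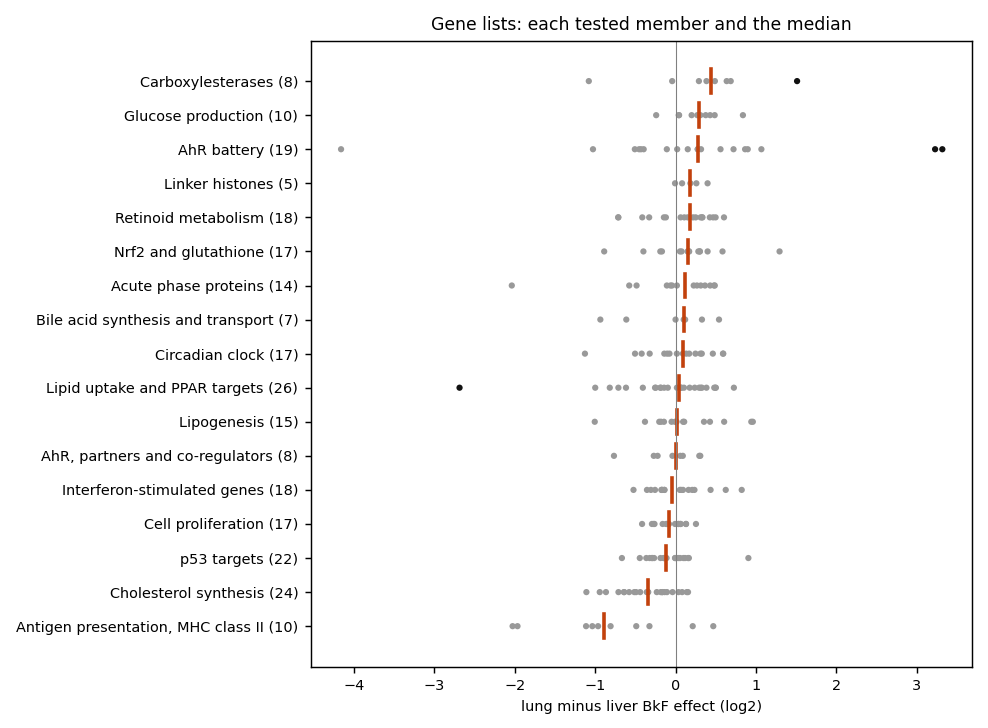
Lung minus liver BkF effect (log2, horizontal axis) of each tested member of 17 gene lists, with the number of members in brackets, called members in black and the median as an orange bar. The MHC class II list has its median at -0.89, and Cd36, Ces1g, Ahrr and Cyp1b1 are the called members.

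Among the lists of other cell types, neutrophil markers moved with exposure in lung. All 4 tested (Cxcr2, S100a8, S100a9 and Camp) met the upward response rule in lung, and the summed signal of 8 markers was 12.73 to 13.68 (log2) in vehicle lungs and 14.29 to 17.08 in exposed lungs, without overlap. In liver it was 9.22 to 9.81 in the vehicle mice and 9.75 to 13.55 in the exposed mice, and S100a9 alone met the rule. Of these 4, 0 were called between tissues by limma and 2 had an unadjusted p under 0.05, and their part in the results above was not tested. Heart muscle markers summed to 12.34 to 15.38 in vehicle lungs and 13.40 to 16.97 in exposed lungs. By limma 0 genes were called in each of the 12 marker lists, with 0 to 2 at an unadjusted p under 0.05. Of all 12446 genes tested, 1138 had such a p. Sftpd, a surfactant protein on the lung list, had a liver effect of 1.27 ± 0.42 (SE) and a lung effect of 0.01 ± 0.17, a difference of -1.26 (limma, adjusted p = 0.43).

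Genes measured in 1 tissue only could not enter the test. Grp, a neuropeptide of pulmonary endocrine cells, was 2.78, 2.13, 2.76 and 1.46 in vehicle lungs and between 0.01 and 0.67 in the exposed lungs, and was not well above background on any liver array. Slc5a12, a lactate transporter, had a mean of 1.54 ± 0.39 (SD, n = 4) in vehicle lungs, 0.43 ± 0.61 (n = 4) at D2 and 0.37 ± 0.25 (n = 4) at D3. In liver, Mmd2 was 3.099 ± 0.53 (n = 4) at D0, 1.07 ± 0.86 (n = 3) at D2 and 0.64 ± 0.28 (n = 4) at D3, and Pglyrp2, an amidase that cleaves bacterial peptidoglycan, was 4.82 ± 0.11 (n = 4), 4.36 ± 0.20 (n = 3) and 3.96 ± 0.17 (n = 4). Mmd2 was not well above background in any lung, and Pglyrp2 in 1. These are values of 1 tissue and not differences between tissues.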

How the data were processed

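Each array paired sample RNA in Cy5 (red) with universal mouse reference RNA in Cy3 (green), without dye swap. The authors deposited 1 Feature Extraction file per array (version 10.7.3.1 for lung, 11.0.1.1 for liver), with linear median intensities per channel and Agilent's log10 ratio of Cy5 to Cy3. The authors also deposited a table of LOWESS-normalised log2 ratios. Its lung columns matched the scanner files (r from 0.997 to 0.999 over probes), but its liver columns did not match by probe although their sorted values did, so it was not used. The authors tested with MAANOVA, which was not used here.

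Here log2 ratios of medians without background subtraction were normalised by loess within arrays in limma 3.58.1 (R 4.3.3). Control and outlier spots were left out and spots averaged, giving 55681 probes, of which 26413 (47.4%) were named through RefSeq accessions. Probes well above background in the sample channel on 3 or more arrays in each tissue were tested (24263). limma was fitted per tissue with its own spread, the standard errors were combined, and p-values (two-sided) were adjusted by Benjamini-Hochberg over all tested probes. Calls needed an adjusted p up to 0.05 and 1.5-fold. The test was checked on simulated data, whose spreads were changed from residual to moderated variances after the first version gave too many wrong calls. Their share stayed well above the nominal level, so all adjusted p-values given here may be too low. Calls near the threshold are the least certain. An "at least" fold sets the mean sample-channel level of the brighter group (loess, then Aquantile normalisation, open to dye bias) against that of the dim group, taking on each dim array the probe's level or the lowest level well above background, whichever was higher. Where a gene has several probes, the brightest is the main one. The number of arrays limits the precision.

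Same-numbered samples come from the same animal. Deviations from group means correlated between the tissues of a mouse at -0.20 to 0.18, above 0.1 in 5 of 11 mice. The genes named were those of called probes, those with opposite responses, a set list, and the called and extreme members of each gene list, of which some are not reported here. The members, lists and alternatives were chosen with earlier results of these data known. No low-dose array entered the comparison.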

Additional observations from a re-analysis of the deposited data

Results flagged for a closer look

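The difference between tissues was itself tested at each probe, and the 23 that passed are flagged. More positive in lung were Ahrr (3.32), Cyp1b1 (3.23), Slc13a2 (2.61), Igfbp2 (2.07 and 1.89 at its 2 probes), A_55_P1977776 (1.61), A_55_P2004099 (1.53) and Ces1g (1.51). The Ahrr and Cyp1b1 values are as fitted from vehicle livers at background, for Ahrr also vehicle lungs, and are not measured differences of effects. More negative were Cd36 (-2.69), Adamdec1 (-2.16), Osbpl3 (-1.72 and -1.59), Car2 (-1.49), Gas6 (-1.42), Tlr12 (-1.36), Clec4n (-1.31), Timp3 (-1.26), Ttc39a (-1.22), Adgrg3 (-1.09), Unc13b (-1.09), Izumo4 (-0.996), 2200002D01Rik (-0.86) and Tusc3 (-0.71), all in log2 units.

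Of 160 groups of 4 arrays examined for the named genes, 6 held an array far from the other 3, and chance alone would give about 1 in 20. Vehicle liver of mouse 1 had Osbpl3 (second probe) at -1.85 against -2.69 to -2.55. High-dose liver of mouse 16 had Cd36 at 0.25 against 1.29 to 1.45. High-dose lung of mouse 20 had Cdkn1a at -1.57 against -0.74 to -0.69. High-dose liver of mouse 20 had Izumo4 at 1.55 against 1.01 to 1.08. Vehicle lung of mouse 4 had Retsat at -0.46 against -0.08 to -0.02. High-dose liver of mouse 19 had A_55_P2004099 at 0.31 against 1.24 to 1.38.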

How the results depend on the processing

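The number of probes called, 23, depended on the setting. It was 2 with median centring in place of loess (Ahrr and Slc13a2), which moved the median of all differences from 0.02 to -0.10, 12 with 1 spread for both tissues, 58 with slides as a block, 5 with D2 alone, 11 with D3 alone 45 without the lung of mouse 12 and the liver of mouse 17 and, chosen after seeing the data, 53 without the 5 arrays of raised fat markers. In the paired analysis with the mouse as replicate block it was 10 for differences within mice and 14 for a random block. Other settings gave 19 to 27. The Feature Extraction ratios gave 26, of which 8 were shared, with 5 more positive in lung and 21 more negative, and median centring gave 2 and 0, against 8 and 15. Leaving out 1 array gave 6 to 61, with 6, 7, 10 and 9 without vehicle livers 1, 2, 3 and 4, 10 without vehicle lung 1 or 3, 15 without D3 lung 16 or D2 liver 13, 14 without D3 liver 20, 46 without D2 lung 12, 61 without D2 liver 11 and 35 without D2 liver 12. The 4 vehicle livers and vehicle lungs 1 and 3 each ended 13 to 17 of the 23 calls when left out. The cause was not tested. Of the values for single named probes, 954 stayed on their side of the threshold, 301 fell below it, 18 rose past it and 2 changed sign. These 2 were Cyp1a1 at -5.00 with the Feature Extraction ratios, which are at 0 in all vehicle livers, and H1f2 at -0.023 with median centring. The authors' table was not run. Ahrr, Cyp1b1 and Cyp1a1 were at background in vehicle livers, so that their liver rises are known only as at-least folds.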
